A study of Saccharomyces cerevisiae with 36 samples.

Results

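The 8 genes described here encode peptidases of the yeast vacuole and the proteins that inhibit them, out of 5713 named genes on the array. They were chosen by function around TFS1 and APE1, with earlier results of these data known. TFS1 and APE1 were selected on their ratios after 90 min in 20 mM caffeine, the largest of all genes tested in that condition. The peptidases are PEP4 (YPL154C, proteinase A), PRB1 (YEL060C, proteinase B), PRC1 (YMR297W, carboxypeptidase Y), APE1 (YKL103C, aminopeptidase I) and APE3 (YBR286W, aminopeptidase Y). The inhibitors are PAI3 (YMR174C, of proteinase A), PBI2 (YNL015W, of proteinase B) and TFS1 (YLR178C, of carboxypeptidase Y). Each gene has 2 spots on the array.

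Cultures of budding yeast (Saccharomyces cerevisiae) were exposed to 1 of 3 drugs that disturb the cell wall, and total RNA of treated and untreated cells was compared on 2-colour arrays. Caffeine, a methylxanthine to which wall mutants are sensitive, was given at 20 or 2 mM. Congo red and calcofluor white, dyes that bind the polysaccharides of the wall, were each given at 0.1 or 0.02 mg/ml. Cells were taken after 5, 15 and 90 min, which gives 18 conditions of 2 arrays each and 36 arrays in all. Replicate 1 carried treated RNA in Cy5 and replicate 2 in Cy3, from separate biological replicates, and the other channel always held untreated RNA of the same time point. The sources used here name neither the strain nor the growth medium.

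The vacuole is the lysosome of yeast, and its peptidases are made as inactive precursors. Proteinase A starts the activation of the others, and proteinase B completes it for several of them. Most reach the vacuole through the secretory pathway, while aminopeptidase I is made in the cytosol and is packed into vesicles by the machinery of selective autophagy. The inhibitors are small cytosolic proteins, each of which binds 1 peptidase tightly. Vacuolar peptidases are known for breaking down protein when nitrogen runs short and when cells enter stationary phase.

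Values are log2 ratios of treated over untreated RNA, each the mean of a gene's 2 spots, and a fitted ratio is given ± its standard error (SE, n = 2 arrays). The fit was made with limma over all 36 arrays, with a term for dye orientation, and a gene is said to have risen or fallen where its Benjamini-Hochberg adjusted p over all genes of that comparison was under 0.05. This SE comes from a single residual variance of the gene, shared by all conditions, and not from the spread of the 2 arrays beside it. Precision is limited by the number of arrays, with a median SE of 0.17 for a condition over all genes. Ratios are relative to the median gene of each array, so a change in RNA shared by all genes cannot be seen in them. Because TFS1 and APE1 were selected on caffeine, their caffeine values are a description with no test. The ratio of treated over untreated was assumed to be the direction of all arrays. Turned, it would change the sign of every ratio and make each rank from the top the same rank from the bottom.

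The measurement was not equally good for all 8 genes. TFS1 was at the floor of the deposited values, a single value repeated across an array, in 12 of 72 spot values and APE1 in 10 of 72, and such values were treated as missing. TFS1 had a value on 32 arrays and APE1 on 34, and their residual SDs of 0.734 and 0.63 compare with 0.239 for the median gene. The other 6 genes had at most 2 spot values at the floor and residual SDs between 0.141 and 0.239. For 7 arrays some label contradicts the sample title, and the title was followed. They are caffeine 20 mM at 15 min replicate 1, congo red 0.02 mg/ml at 90 min replicate 1, and 5 arrays of calcofluor white at 5 or 15 min. None of the arrays of caffeine 20 mM at 90 min is among them.

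After 90 min in 20 mM caffeine, the carboxypeptidase Y inhibitor TFS1 and aminopeptidase I, APE1, had the 2 highest ratios of 5270 genes. TFS1 had log2 ratios of 4.76 and 3.74 on the 2 arrays, and its fitted ratio was 4.25 ± 0.46, or 19-fold. Both arrays were high, and its single spots lay between 3.69 and 4.97. APE1 had 5.34 and 3.12, with a fitted ratio of 4.23 ± 0.41, or 18.7-fold. Its replicate 1 stood well above its replicate 2, and so did both spots, at 5.3 and 5.38 on replicate 1 against 3.32 and 2.92 on replicate 2. The gene next in order was the ammonium permease MEP2, at 4.12. Without replicate 1 the ratios of TFS1 and APE1 were 3.57 and 2.86, and without replicate 2 they were 4.93 and 5.60.

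Among the other 6 genes, 3 rose after 90 min in 20 mM caffeine, none fell and 3 did not pass, where 44.4% of all 5270 genes passed in one direction or the other. The median fitted ratio of the 6 was 0.52, beside -0.03 over all genes tested. PBI2, the inhibitor of proteinase B, had log2 ratios of 2.65 and 2.63, and rose by 2.64 ± 0.17, or 6.24-fold (limma adjusted p = 2.35e-10), which made it the 22nd highest gene. PEP4, the activating proteinase A, had 1.77 and 1.84, and rose by 1.81 ± 0.12, or 3.5-fold (limma adjusted p = 3e-10). The 2 arrays of both genes nearly coincided in this condition. Over all conditions both genes had a dye term that passed, 0.66 ± 0.08 for PBI2 and -0.25 ± 0.05 for PEP4. APE3, aminopeptidase Y, had 0.76 and 0.79 and rose by 0.78 ± 0.17, or 1.71-fold (limma adjusted p = 0.000749).

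The remaining 3 did not pass at that time. PRC1, carboxypeptidase Y, had 0.12 and 0.42, with a fitted ratio of 0.27 ± 0.11 (limma adjusted p = 0.0535). PRB1, proteinase B, had -0.55 and 0.30, on either side of 0, and a fitted ratio of -0.13 ± 0.16 with a 95% interval of -0.46 to 0.21. PAI3, the inhibitor of proteinase A, had 0.13 and -0.04 and a fitted ratio of 0.04 ± 0.13, with an interval of -0.24 to 0.32. Scaling all arrays to one spread, which shrinks the caffeine arrays, lowered the fitted ratios at 90 min to 2.36 for TFS1, 2.41 for APE1, 1.43 for PBI2, 0.97 for PEP4 and 0.42 for APE3, and APE3 no longer passed (limma adjusted p = 0.0888).

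**Figure D1:**
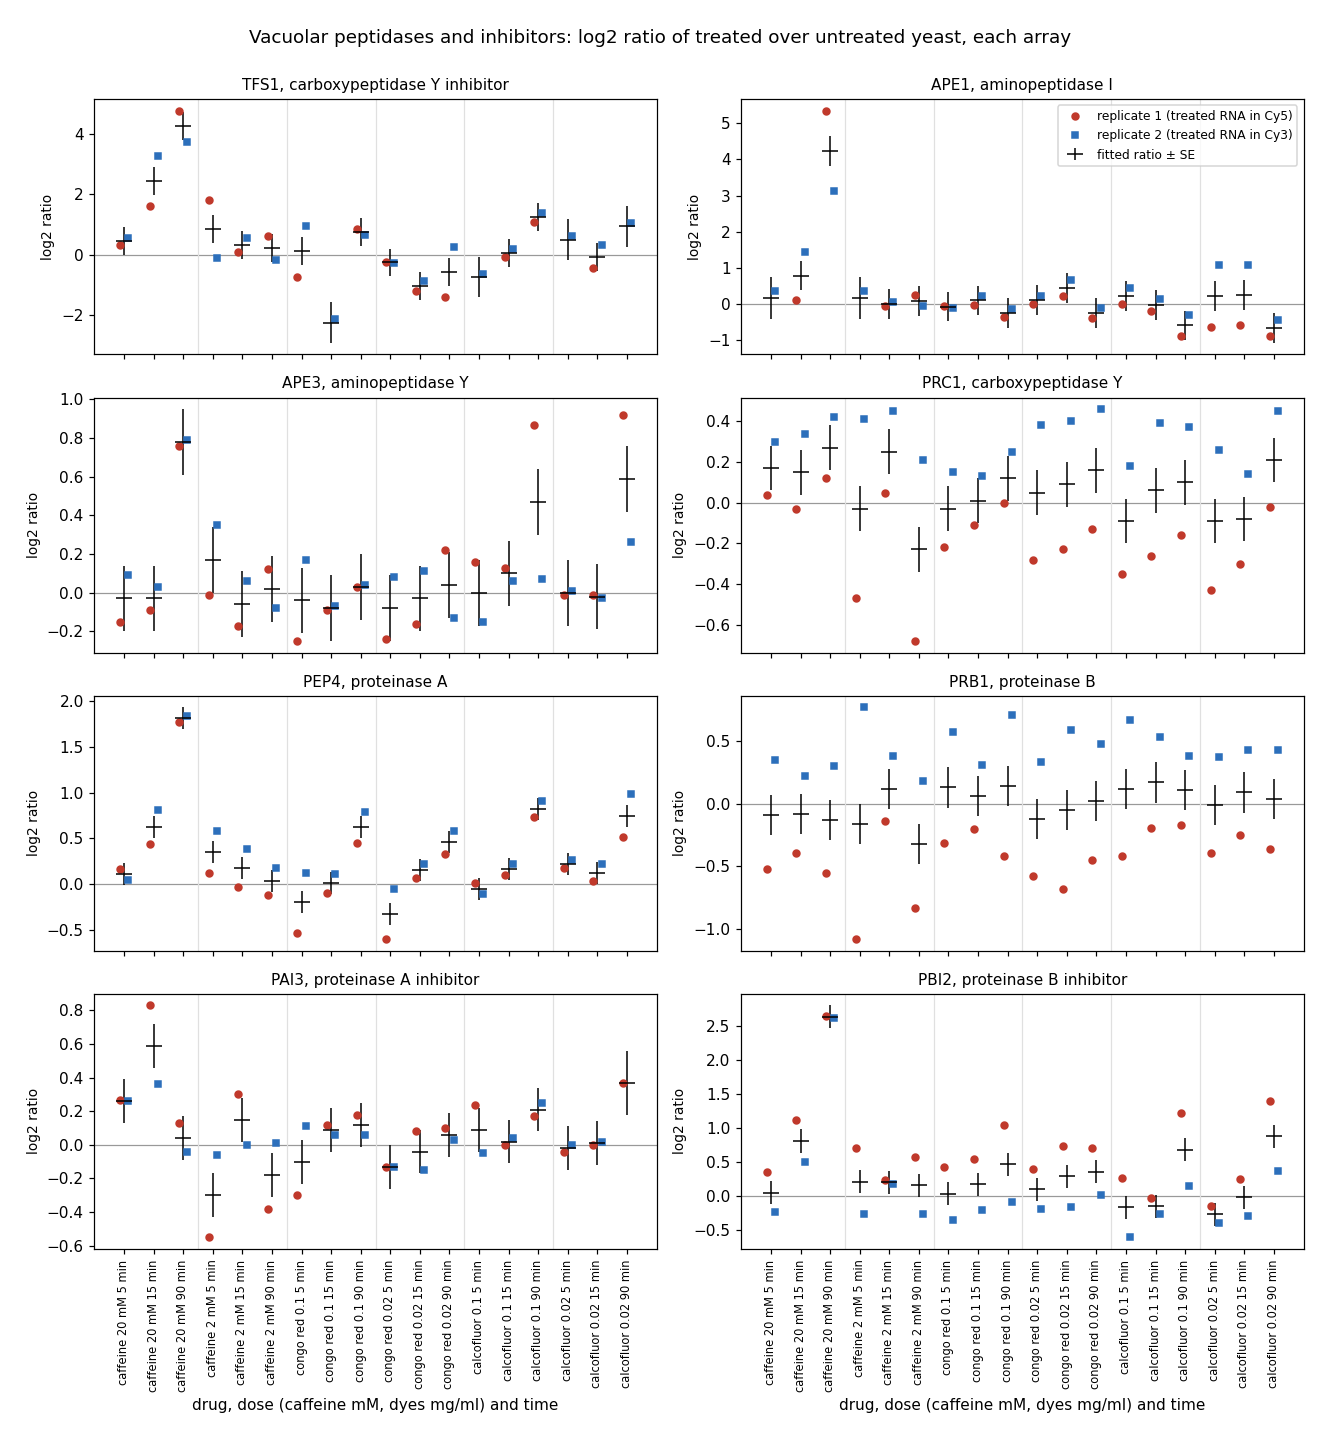
Log2 ratio of treated over untreated RNA (vertical axes, which differ between genes) for the 8 genes in the 18 conditions. Circles are replicate 1, squares are replicate 2, and horizontal ticks with bars are the fitted ratio ± SE. TFS1, APE1, PEP4, PBI2, APE3 and PRC1 have their highest fitted ratios at caffeine 20 mM 90 min (4.25, 4.23, 1.81, 2.64, 0.78 and 0.27). PRB1 keeps its 2 arrays on opposite sides of 0 in every condition.

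At 5 min of 20 mM caffeine 0 of 6 genes passed (1.2% of all genes did, and 624 of 5260 had an unadjusted p under 0.05), and TFS1 stood at 0.34 and 0.56. At 15 min TFS1 had 1.61 and 3.27, a fitted ratio of 2.44 ± 0.46, the 11th highest of 5258 genes. APE1 had 0.12 and 1.45 at 15 min, the second from 1 spot only, and a fitted ratio of 0.79 ± 0.41, the 268th highest. Without the arrays with conflicting labels the fitted ratios at 15 min were 3.32 for TFS1 and 1.44 for APE1, each from 1 array.

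Among the other 6 genes 3 rose at 15 min, where 31.1% of all genes passed. PBI2 had 1.12 and 0.50 and rose by 0.81 ± 0.17 (limma adjusted p = 0.00101). PEP4 had 0.44 and 0.81 and rose by 0.62 ± 0.12 (limma adjusted p = 0.000438). PAI3 had 0.83 and 0.36 and rose by 0.59 ± 0.13 (limma adjusted p = 0.0025), the one condition in which the proteinase A inhibitor passed. APE3 had -0.09 and 0.03, close to untreated cells, and PRC1 and PRB1 had fitted ratios of 0.15 and -0.08. These 15 min calls rest partly on replicate 1, one of the arrays with conflicting labels. Without the 7 such arrays the adjusted p was 0.0527 for PBI2, 0.0504 for PEP4 and 0.419 for PAI3, with fitted ratios of 0.87, 0.67 and 0.35, so 0 of the 3 passed.

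The difference between 90 and 15 min of 20 mM caffeine was tested directly, and 35.7% of all genes passed there. PBI2 was higher at 90 min by 1.84 ± 0.23 (limma adjusted p = 9.53e-06), PEP4 by 1.18 ± 0.16 (limma adjusted p = 2.49e-05) and APE3 by 0.80 ± 0.24 (limma adjusted p = 0.0131). PAI3 went the other way, with a difference of -0.55 ± 0.19 (limma adjusted p = 0.0299). Without caffeine 20 mM 15 min replicate 1, or without 90 min replicate 2, the differences of PBI2 and PEP4 passed and those of APE3 and PAI3 did not. With arrays scaled to one spread PBI2 alone passed. PRC1 and PRB1 differed by 0.12 ± 0.16 and -0.04 ± 0.23 and did not pass. For TFS1 the difference was 1.80 ± 0.66 and for APE1 3.44 ± 0.57. Between 15 and 5 min, 0 of the 6 genes passed, where 2.42% of all genes did. The closest were PBI2 at 0.75 ± 0.23 (limma adjusted p = 0.106) and PEP4 at 0.52 ± 0.16 (limma adjusted p = 0.118).

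**Figure D2:**
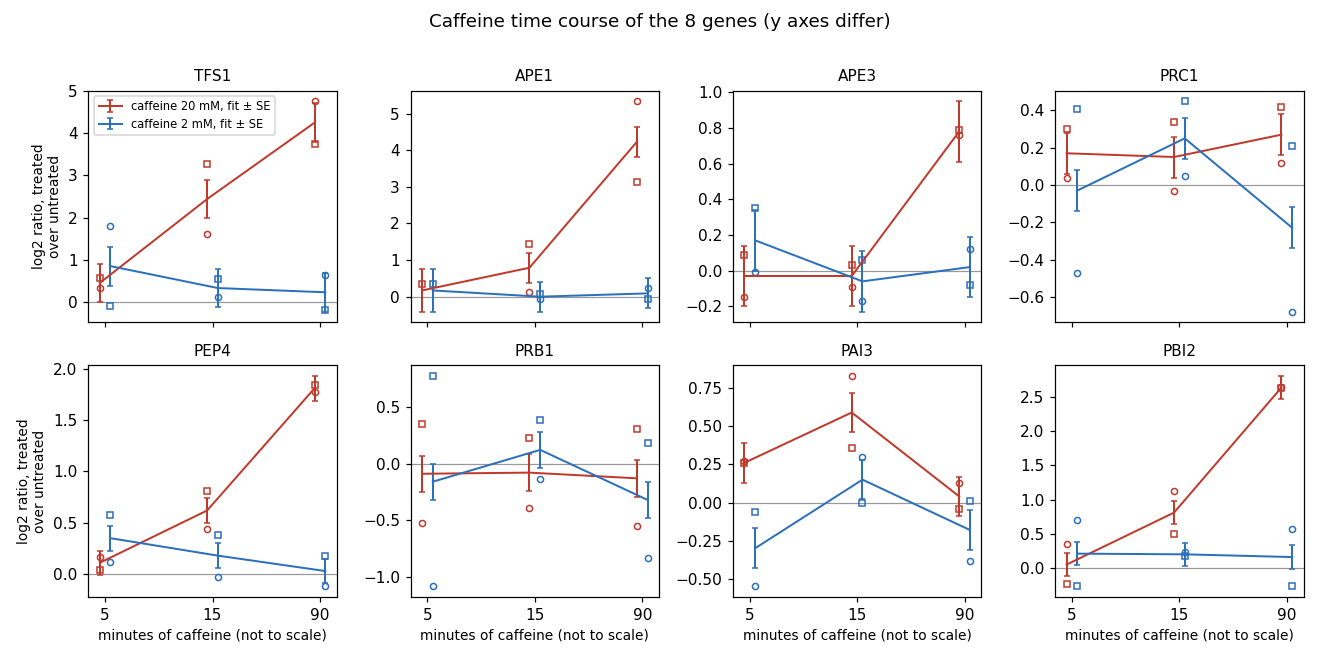
Log2 ratio of treated over untreated RNA (vertical axes, which differ between genes) at 5, 15 and 90 min of caffeine, spaced evenly and not to scale. Red is 20 mM and blue is 2 mM, lines with bars are fitted ratios ± SE, open circles are replicate 1 and open squares replicate 2. At 20 mM and 15 min TFS1 is at 2.44, APE1 at 0.79 and PAI3 at 0.59, and APE3 is at 0.78 at 90 min.

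At 2 mM caffeine 0 of the 6 genes passed at 5, 15 or 90 min, where 5.15%, 0.54% and 0% of all genes passed, and 579 of 5380 genes had an unadjusted p under 0.05 at 90 min. The fitted ratios of PBI2 lay between 0.16 and 0.21 over the 3 times and those of PEP4 between 0.03 and 0.35. TFS1 had 1.80 (from 1 spot) and -0.10 at 5 min, 0.11 and 0.55 at 15 min, and 0.64 and -0.18 at 90 min, so its arrays lay on both sides of 0 at 5 and 90 min. APE1 had 0.35 on its 1 measured array at 5 min, -0.06 and 0.06 at 15 min, and 0.25 and -0.06 at 90 min. Replicate 1 of 2 mM at 5 min ran against replicate 1 of 2 mM at 15 min (correlation -0.375 over all genes), and with its sign turned the fitted ratio of TFS1 at 5 min was -0.95 in place of 0.85.

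The dose difference was tested at each time. At 90 min, where 23.2% of all genes passed, 4 of the 6 genes were higher at 20 mM than at 2 mM. PBI2 differed by 2.48 ± 0.23 (limma adjusted p = 3.65e-07), PEP4 by 1.78 ± 0.16 (limma adjusted p = 2.83e-07), APE3 by 0.75 ± 0.24 (limma adjusted p = 0.0244) and PRC1 by 0.50 ± 0.16 (limma adjusted p = 0.0241). For PRC1 the 20 mM arrays, at 0.12 and 0.42, lay above 2 mM arrays of the same orientation, at -0.68 and 0.21, though the 2 doses overlap and neither passed by itself. PBI2 and PEP4 passed in every alternative run. APE3 and PRC1 did not pass when the replicate block was dropped, when the spread of the arrays was equalised, when values were not centred or when arrays were weighted, and APE3 did not pass when any 1 of the 4 arrays was left out. PRC1 also failed to pass without replicate 1 of either dose (0.39 and 0.30) and when the caffeine arrays were fitted alone. TFS1 differed by 4.01 ± 0.66 and APE1 by 4.13 ± 0.57. At 15 min 0 of the 6 genes passed (4.82% of all genes), with PBI2 at 0.61 ± 0.23 (limma adjusted p = 0.156), and at 5 min 0 of 6 passed (2.59% of all genes), with PAI3 at 0.57 ± 0.19 (limma adjusted p = 0.0887).

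The wall-binding dyes played no part in the selection of TFS1 and APE1, so all 8 genes were tested there. Proteinase A, PEP4, rose at 90 min in 3 of the 4 dye treatments. Under congo red at 0.1 mg/ml PEP4 had 0.45 and 0.79 and rose by 0.62 ± 0.12 (limma adjusted p = 0.00607). Under calcofluor white at 0.1 mg/ml it had 0.73 and 0.91 and rose by 0.82 ± 0.12 (limma adjusted p = 6.03e-05). Under calcofluor white at 0.02 mg/ml it had 0.51 and 0.98 and rose by 0.74 ± 0.12 (limma adjusted p = 0.000299), a call that just missed the threshold without replicate 2 (ratio 0.63, limma adjusted p = 0.0513). Under congo red at 0.02 mg/ml both arrays were above 0, at 0.33 and 0.58, and the fitted ratio of 0.46 ± 0.12 did not pass (limma adjusted p = 0.0812), in a condition that includes an array with conflicting labels. The call under congo red at 0.1 mg/ml was lost when either array was left out, with ratios of 0.58 and 0.67, and without the replicate block.

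PBI2 rose with calcofluor white at both doses. At 0.1 mg/ml it had 1.23 and 0.14 and rose by 0.68 ± 0.17 (limma adjusted p = 0.00693), and at 0.02 mg/ml it had 1.40 and 0.37 and rose by 0.88 ± 0.17 (limma adjusted p = 0.00125). Replicate 1 was far above replicate 2 in both. Without replicate 1 neither call held, and the ratios were 0.46 and 0.69. With congo red at 0.1 mg/ml PBI2 had 1.04 and -0.09 and a fitted ratio of 0.47 ± 0.17 (limma adjusted p = 0.232), and at 0.02 mg/ml 0.71 and 0.02 and 0.36 ± 0.17 (limma adjusted p = 0.679).

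APE3 rose with calcofluor white at 0.02 mg/ml, where it had 0.92 and 0.26 and a fitted ratio of 0.59 ± 0.17 (limma adjusted p = 0.0254), and this call was lost without replicate 1, with values not centred, with floored spots kept, with arrays scaled to one spread and with no block for the replicates (ratios 0.25 to 0.59). At 0.1 mg/ml it had 0.87 and 0.07 and a fitted ratio of 0.47 ± 0.17, which did not pass (limma adjusted p = 0.0625). With congo red its arrays at 90 min lay between -0.13 and 0.22. TFS1 had 1.08 and 1.40 with calcofluor white at 0.1 mg/ml, above 0 on both arrays, though its 2 spots on replicate 2 read 2.62 and 0.18, and its fitted ratio of 1.24 ± 0.46 did not pass (limma adjusted p = 0.0878). It passed when its first spot alone was used (2.02, limma adjusted p = 0.00476) and when only the arrays of calcofluor white were fitted (limma adjusted p = 0.00376). With congo red at 0.1 mg/ml TFS1 had 0.85 and 0.65 and a fitted ratio of 0.75 ± 0.46 (limma adjusted p = 0.71), and at 0.02 mg/ml it had -1.41 (from 1 spot of an array with conflicting labels) and 0.25.

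APE1 at 90 min was below 0 on all 8 dye arrays, between -0.89 and -0.10, with fitted ratios of -0.24 for congo red at both doses, -0.59 for calcofluor white at 0.1 mg/ml and -0.66 at 0.02 mg/ml. None of the 4 passed (limma adjusted p between 0.363 and 1), and the 95% interval for calcofluor white at 0.02 mg/ml ran from -1.51 to 0.19.

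PRC1, PRB1 and PAI3 passed in 0 of the dye conditions in which they were tested. At 90 min, where tested, their fitted ratios lay between 0.10 and 0.21 for PRC1, between 0.02 and 0.14 for PRB1 and between 0.06 and 0.21 for PAI3. PAI3 and TFS1 had a value on 1 array only with calcofluor white at 0.02 mg/ml and were not tested there. Their fitted ratios in that condition were 0.37 for PAI3 and 0.94 for TFS1. In all, at 90 min 1 of 8 genes rose with congo red at 0.1 mg/ml (1.38% of all genes passed) and 0 of 8 with 0.02 mg/ml (0.691%, and 367 of 5354 genes had an unadjusted p under 0.05). With calcofluor white 2 of 8 rose at 0.1 mg/ml (14.7% of all genes) and 3 of the 6 tested at 0.02 mg/ml (11.1%).

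At 5 and 15 min of the dyes 0 of the genes tested passed in any of the 8 conditions. Of all genes, 0.0187% passed with congo red 0.1 mg/ml at 5 min, 0% at 15 min, 0% with congo red 0.02 mg/ml at 5 min and 0.0187% at 15 min. The share was 0% with calcofluor white 0.1 mg/ml at 5 min, 0.0197% at 15 min, and 0% with calcofluor white 0.02 mg/ml at 5 and 15 min, while between 45 and 267 genes a condition had an unadjusted p under 0.05. The fitted ratios of 7 of the genes lay between -0.33 and 0.45 over these 8 conditions. TFS1 spread more widely, down to -1.20 and -0.87 with congo red 0.02 mg/ml at 15 min (fitted ratio -1.03 ± 0.46, limma adjusted p = 1) and to -2.12 on the 1 measured array of congo red 0.1 mg/ml at 15 min. On congo red 0.02 mg/ml at 15 min replicate 1 the 2 spots of TFS1 read 0.24 and -2.65, the widest gap of any of the 8 genes.

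Congo red and calcofluor white were compared with each other at 0.1 mg/ml and 90 min, where 0.288% of all genes passed, and 0 of the 8 genes did (627 of 5207 genes had an unadjusted p under 0.05). The difference for PEP4 was -0.19, with a 95% interval of -0.54 to 0.15. For PBI2 it was -0.21, with an interval of -0.70 to 0.28, and for APE3 -0.44, with -0.93 to 0.05. For TFS1 the interval was wider, -1.87 to 0.90.

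Caffeine at 20 mM was set against the mean of both dyes at 0.1 mg/ml. At 90 min, where 29.6% of all genes passed, 2 of the 6 genes were higher with caffeine. PBI2 differed by 2.06 ± 0.20 (limma adjusted p = 3.98e-07) and PEP4 by 1.09 ± 0.14 (limma adjusted p = 1.48e-05). With arrays scaled to one spread PEP4 differed by 0.38 and did not pass (limma adjusted p = 0.238). APE3, at 0.52 ± 0.20, did not pass (limma adjusted p = 0.059). TFS1 differed by 3.25 ± 0.57 and APE1 by 4.65 ± 0.50.

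At 15 min, where 17.2% of all genes passed, 3 of the 6 were higher with caffeine than with the dyes. PBI2 differed by 0.79 ± 0.20 (limma adjusted p = 0.01), PEP4 by 0.54 ± 0.14 (limma adjusted p = 0.0126) and PAI3 by 0.54 ± 0.16 (limma adjusted p = 0.0287). None of the 3 passed without caffeine 20 mM at 15 min replicate 1, without the replicate block or with all arrays brought to one spread, and PAI3 alone passed without replicate 2. PAI3 did not pass either without calcofluor white replicate 1 (0.52) or congo red replicate 2 (0.53). The values of PAI3 under caffeine, 0.83 and 0.36, lay above its 4 dye arrays, which ranged from 0.00 to 0.12.

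Each inhibitor was next set against the peptidase it binds, as the difference of their log2 ratios on the same array. This shows unequal change of the 2 transcripts and not their relative amounts. For PBI2 over PRB1 the difference after 90 min in 20 mM caffeine was 3.21 and 2.33, above all of the other 34 arrays, which lay between -1.28 and 1.78. That range is split by orientation. The other replicate 1 arrays lay between 0.17 and 1.78, and the other replicate 2 arrays between -1.28 and 0.28. For TFS1 over PRC1 it was 4.64 and 3.31, above the other 30 measured arrays, whose highest was 2.94 at 15 min of 20 mM caffeine. TFS1 was selected on its high ratio after 90 min in 20 mM caffeine, so this place follows from the selection. For PAI3 over PEP4 the difference at 90 min was -1.64 and -1.89, below the other 33 measured arrays, which lay between -0.74 and 0.47. In this condition the proteinase B inhibitor rose while its target did not pass, and proteinase A rose while its inhibitor did not pass. Not passing does not show that a transcript was unchanged. These differences were picked after the values were known and were not tested.

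**Figure D3:**
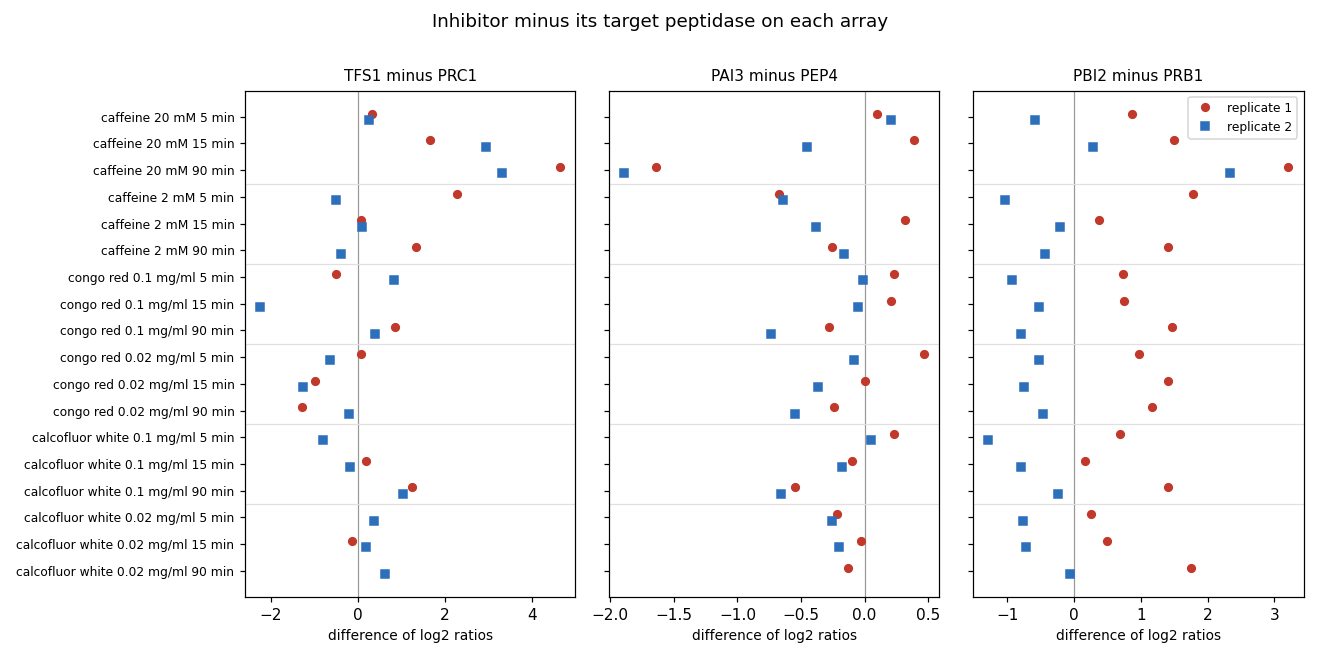
Difference of log2 ratios, inhibitor minus its target peptidase (horizontal axes), in each of the 18 conditions (rows). Circles are replicate 1 and squares replicate 2, and a missing symbol means that both spots of a gene were at the floor. Some symbols rest on 1 spot of a gene, the other being at the floor. Caffeine 20 mM 90 min lies outside all other arrays in each panel, at 4.64 and 3.31 for TFS1 minus PRC1, -1.64 and -1.89 for PAI3 minus PEP4, and 3.21 and 2.33 for PBI2 minus PRB1. TFS1 was selected on its high ratio in that condition. For PBI2 minus PRB1, replicate 1 lies above replicate 2 in every condition.

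The dye term passed for 4 of the 8 genes and for 3404 of all 5391 genes. This term, replicate 1 minus replicate 2, was -0.88 ± 0.08 for PRB1 (limma adjusted p = 3.34e-09), -0.51 ± 0.05 for PRC1 (limma adjusted p = 5.15e-08), -0.25 ± 0.05 for PEP4 (limma adjusted p = 0.000457) and 0.66 ± 0.08 for PBI2 (limma adjusted p = 3.03e-07). PRB1 had opposite signs on its 2 arrays in 18 of 18 conditions, with replicate 2 the higher each time. PBI2 had the higher value in replicate 1 in 18 of 18 conditions, and in 8 of 18 the signs of its 2 arrays matched. Its smallest gap was at caffeine 20 mM 90 min, where it had 2.65 and 2.63. APE3, PAI3, TFS1 and APE1 had dye terms of 0.02, 0.01, -0.24 and -0.35 and did not pass. Since orientation and replicate number are the same factor, a dye effect and a difference between the replicate cultures cannot be told apart.

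Across the 18 conditions the fitted ratios of PEP4 and PBI2 ran closest together of all 28 pairs of these genes (Pearson r = 0.909, and 0.771 over the 17 conditions without caffeine 20 mM 90 min). APE3 ran with PEP4 (0.85, and 0.701 without that condition) and TFS1 with PEP4 (0.806, and 0.594). Several correlations of APE1 changed sign without that condition. Its r with TFS1 was 0.65 and became -0.0267, with PBI2 0.771 became -0.33, and with APE3 0.468 became -0.73, while with PRB1 it was -0.347 and stayed near that at -0.367. PRB1 had no r above 0.27 with any other of the 8 genes over the 18 conditions. All points share the dye term estimated for a gene, and these values are descriptions. TFS1 had a value on both arrays in 14 of the 18 conditions and APE1 in 16, and their other points rest on 1 array. The lowest point of TFS1, -2.24 with congo red 0.1 mg/ml at 15 min, is such a point.

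Of 5238 genes with a value in all 18 conditions, those most like TFS1 were PCD1 (r = 0.925), RRI2 (0.861), GAD1 (0.854), YGL258W-A (0.844) and GRH1 (0.844). Without caffeine 20 mM 90 min their r lay between 0.669 and 0.884. They were picked on r over these same conditions, so these values are no separate support. Those most like APE1 were BAT2 (0.954), YEL073C (0.946), SEC12 (0.936), PIK1 (0.927) and FRA1 (0.925), and without that condition their r fell to between 0.275 and 0.573. Those most like PRB1 were BIT61 (0.835), NFG1 (0.769), LCB2 (0.726), ATG12 (0.707) and CTF13 (0.703). The fitted ratios of PRB1 spanned only -0.32 to 0.17, with an SE of 0.16, and it passed in no comparison. At caffeine 20 mM 90 min PRB1 had -0.13, so leaving that condition out could change r little (0.681 to 0.834). The points of TFS1 and APE1 that rest on a single array enter these values too.

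The rest of the vacuole's protein-degrading system was followed in 4 lists at 20 mM caffeine. Of all genes, 44.4% passed there at 90 min and 31.1% at 15 min. The 15 min values of all lists rest partly on replicate 1, one of the arrays with conflicting labels. The lists were not recomputed without that array or under the other alternatives. Of the other vacuolar hydrolases, 12 in the list and 10 tested, 2 rose and none fell at 90 min, a smaller share than the 44.4% of all genes, and the list's median was -0.07 against -0.03 for all genes. ATG42, a carboxypeptidase related to carboxypeptidase Y, had 2.03 and 1.99 and rose by 2.01 ± 0.16 (limma adjusted p = 3.64e-09). It had already risen at 15 min, by 1.29 ± 0.16 (limma adjusted p = 3.51e-06), while PRC1 passed at neither time. APE4, an aminopeptidase delivered to the vacuole with APE1, had 0.61 and 0.63 and rose by 0.62 ± 0.11 (limma adjusted p = 0.0001). RNY1, the vacuolar ribonuclease, had 0.37 and 0.47 and a fitted ratio of 0.42 ± 0.17 (limma adjusted p = 0.0531). At 15 min 3 of these hydrolases rose, ATG42, RNY1 and the trehalase ATH1, and 2 fell, the dipeptidyl aminopeptidase DAP2 and the mannosidase AMS1, beside 31.1% of all genes.

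The genes for delivery of aminopeptidase I, most of which also serve autophagy, numbered 9, and 8 were tested. At 90 min 4 rose (ATG8, ATG9, ATG13 and ATG23) and 1 fell (ATG27), beside 44.4% of all genes that passed, with a median of 0.27 against -0.03 for all genes. At 15 min 2 rose (ATG1 and ATG8) and 2 fell (ATG27 and ATG34), beside 31.1% of all genes. ATG9, a membrane protein of the forming vesicle, had 1.09 and 1.63 and rose by 1.36 ± 0.18 (limma adjusted p = 2.97e-06). ATG23, a partner of Atg9, had 3.13 and 0.56 and rose by 1.85 ± 0.25 (limma adjusted p = 4.19e-06), with arrays far apart. ATG27, another partner of Atg9, had -0.83 and -0.54 and fell by 0.69 ± 0.17 (limma adjusted p = 0.00199). ATG19, the receptor that binds aminopeptidase I, had a fitted ratio of 0.17 ± 0.11 and did not pass (limma adjusted p = 0.231), in the condition in which APE1 had its highest ratio.

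Of 18 genes for sorting and docking at the vacuole, all tested, 5 rose (VPS33, VPS41, VAM6, VPS9 and PEP12) and 3 fell (PEP5, YPT7 and NYV1) at 90 min, a share near the 44.4% of all genes, with a median of 0.06 against -0.03 for all genes. At 15 min 1 rose, PEP12, and 3 fell, NYV1, PEP3 and MON1, beside 31.1% of all genes. VPS33, which guides membrane fusion at the vacuole, had 2.24 and 0.56 and rose by 1.40 ± 0.22 (limma adjusted p = 4.27e-05). VPS9, an activator of an endosomal GTPase, had 0.40 and 0.58 and rose by 0.49 ± 0.13 (limma adjusted p = 0.00519). YPT7, the GTPase of vacuole fusion, had -0.47 and -0.56 and fell by 0.51 ± 0.10 (limma adjusted p = 0.000264). PEP1, the receptor that sorts carboxypeptidase Y, had a fitted ratio of -0.27 ± 0.19 and did not pass (limma adjusted p = 0.252).

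The fourth list holds the vacuolar ATPase, the proton pump that acidifies the vacuole. Of 14 genes tested, 0 rose and 6 fell at 15 min (median -0.33 against 0.02 for all genes, of which 31.1% passed), and 5 rose and 2 fell at 90 min (median 0.17 against -0.03, with 44.4% passed). Those that rose were VPH1, STV1, VMA5, VMA6 and VMA13, and those that fell were VMA2 and VMA3. The difference between 90 and 15 min passed upward for 8 genes and downward for 1, VMA3, where 35.7% of all genes passed. Both the 15 min counts and this difference rest partly on the 15 min array with conflicting labels, and were not recomputed without it. VMA5 and VMA6, subunits on the pump's cytosolic side, fell at 15 min and rose at 90 min, with fitted ratios at 15 and 90 min of -1.36 and 0.71 for VMA5 and of -0.49 and 0.55 for VMA6. VPH1, the pump's vacuolar membrane subunit, had 0.70 and 1.01 at 90 min and rose by 0.85 ± 0.13 (limma adjusted p = 2e-05). STV1, its counterpart in the Golgi and endosomes, had 1.11 and 0.91 and rose by 1.01 ± 0.16 (limma adjusted p = 3.46e-05). VMA2, a subunit of the pump's ATP-splitting part, had -0.67 and -0.97 and fell by 0.82 ± 0.16 (limma adjusted p = 0.000229).

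**Figure D4:**
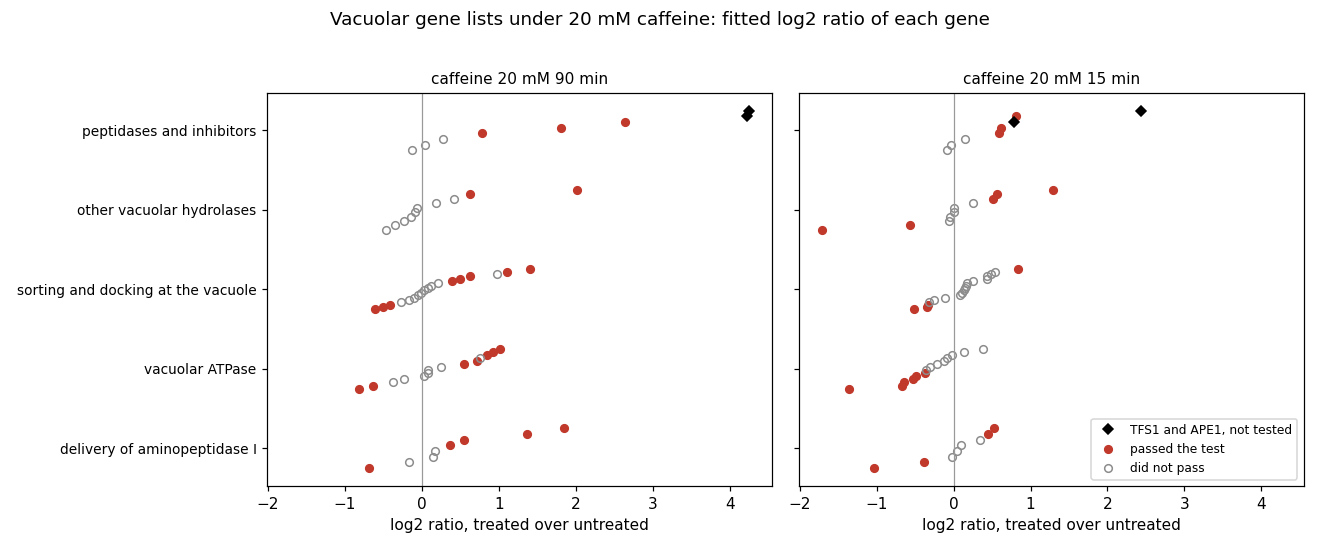
Fitted log2 ratio of treated over untreated RNA (horizontal axis) of each gene of 5 groups (rows), after 90 min (left) and 15 min (right) in 20 mM caffeine. Red points passed the test, open grey points did not, and black diamonds are TFS1 and APE1, which were selected on caffeine and not tested. Of the vacuolar ATPase genes 5 rose and 2 fell at 90 min, and 0 rose and 6 fell at 15 min. The 15 min values rest partly on an array with conflicting labels.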

How the data were processed

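The deposited values are natural log ratios of the 2 channels per spot, with a mean of 0 on each array, as read from the values, since no source used here states the authors' scale or normalization. The floor value of an array (1.609% to 16.088% of named spots) was treated as missing. Division by 0.6931 gave log2 values, which were averaged per gene and centred on the array median with python 3.11.15, numpy 2.4.6 and pandas 2.3.3.

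After 15 and 90 min in 20 mM caffeine both orientations ran the same way over all genes (r = 0.531 and 0.672). This leaves the direction itself unsettled. These r were the highest of the 18 conditions, and 5 min of the same dose gave 0.0822. In most conditions the orientations ran against each other, down to -0.524 with calcofluor white 0.02 mg/ml at 15 min. At 90 min, congo red gave -0.124 at 0.1 mg/ml and -0.115 at 0.02 mg/ml. Calcofluor white gave 0.128 and 0.148 at these doses. The model, in limma 3.58.1 (R 4.3.3), had 18 conditions and dye orientation, which doubles as the replicate block, and covered 5391 genes measured on 24 or more of the 36 arrays. The numbers pair the arrays: deviations from the condition means correlated over 0.1 between same-numbered arrays for 153 of 153 condition pairs (0.113 to 0.784). A gene was tested where all arrays compared had a value, with Benjamini-Hochberg adjustment per comparison and a threshold of 0.05. Alternatives were no block, scaled or uncentred arrays, array weights, floored spots kept, genes on all arrays, single spots, arrays of the drugs compared, a turned sign and left-out arrays.

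The 8 genes and the 4 lists were chosen with earlier results of these data known. Named were all 8 genes, from each list up to 3 genes with the smallest p at caffeine 20 mM 90 min, and the 5 genes most correlated with TFS1, APE1 and PRB1. PEP1, ATG19, MEP2, the adjacent genes and further list genes that complete a small count were named after their values were seen.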

Additional observations from a re-analysis of the deposited data

Results flagged for a closer look

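In 13 cases the effect of a treatment differed between doses, times or drugs by a test of the difference itself. These cases are among the 6 genes other than TFS1 and APE1. All 8 genes were chosen with earlier results of these data known. Between 20 and 2 mM caffeine at 90 min the difference was 2.48 for PBI2, 1.78 for PEP4, 0.75 for APE3 and 0.50 for PRC1. Between 90 and 15 min of 20 mM caffeine it was 1.84 for PBI2, 1.18 for PEP4, 0.80 for APE3 and -0.55 for PAI3, the only one of these differences below 0. Between 20 mM caffeine and the mean of both dyes it was 2.06 for PBI2 and 1.09 for PEP4 at 90 min, and 0.79 for PBI2, 0.54 for PEP4 and 0.54 for PAI3 at 15 min. All are log2 differences from the limma fit with adjusted p under 0.05. Of all genes, 23.2% passed between the doses at 90 min and 35.7% between 90 and 15 min. Against the dyes, 29.6% of all genes passed at 90 min and 17.2% at 15 min. The differences of APE3, PRC1 and PAI3 did not pass under several of the other settings.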

How the results depend on the processing

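Of 25 tested single-gene results that passed, recomputed under 335 settings in all, 266 recomputations still passed in the same direction, 69 no longer passed and 0 turned direction. PEP4 and PBI2 at caffeine 20 mM 90 min, and their difference from 2 mM, passed under every setting run. With no replicate block the count of genes passed was 1 in place of 3 for calcofluor white 0.02 mg/ml at 90 min, 1 in place of 2 at 0.1 mg/ml, 0 in place of 1 for congo red 0.1 mg/ml at 90 min, 2 in place of 4 between the caffeine doses at 90 min and 0 in place of 3 for caffeine against the dyes at 15 min. With arrays scaled to one spread it was 1 for calcofluor white 0.1 mg/ml at 90 min, 1 in place of 3 for caffeine 20 mM at 15 min, 2 between the doses at 90 min, 1 in place of 4 between 90 and 15 min, and 1 in place of 2 at 90 min and 0 at 15 min against the dyes. Over all genes, the scaled fit called 891 and the fit without the block 1386 in place of 2341 at caffeine 20 mM 90 min. The fit without the block called 149 of all genes in place of 522 for calcofluor white 0.02 mg/ml at 90 min. It called 231 in place of 765 at 0.1 mg/ml, and 16 in place of 74 for congo red 0.1 mg/ml at 90 min. The scaled fit called 345 for calcofluor white 0.1 mg/ml at 90 min, and 561 in place of 1637 for caffeine 20 mM at 15 min. With array weights the count among the genes followed here was 2 in place of 0 for congo red 0.02 mg/ml at 90 min, 2 between the doses at 90 min and 2 between 90 and 15 min. Values not centred gave 2 between the doses at 90 min, and the first spot alone gave 4 for calcofluor white 0.1 mg/ml at 90 min. Turning the sign of caffeine 2 mM 5 min replicate 1 gave 2 in place of 0 there and 1 in place of 0 between the doses at 5 min. Without the 7 arrays with conflicting labels, an alternative chosen after seeing the data, the count was 0 for caffeine 20 mM at 15 min and 2 between 90 and 15 min. The cause was not tested. Leaving out 1 array gave 1 to 2 for calcofluor white 0.02 mg/ml and 1 to 3 at 0.1 mg/ml at 90 min, 0 for congo red 0.1 mg/ml at 90 min, 0 to 2 for caffeine 2 mM at 5 min and between the doses at 5 min, 2 to 3 between the doses at 90 min, 2 to 4 between 90 and 15 min, and 0 to 3 for caffeine against the dyes at 15 min. With 1 array left, its spread is taken to be that of the other conditions. Missing spots limit TFS1 and APE1 most.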

Other observations

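The genes beside the 8 on the chromosome were examined after their values were seen, in the gene order of RefSeq and with the strand letter of the systematic names. After 90 min in 20 mM caffeine 11 of the 14 measured neighbours passed, 5 upward and 6 downward, where 44.4% of all genes did. YLR177W, which faces TFS1 tail to tail, had log2 ratios of 2.68 and 2.13 at 15 min and 2.06 and 1.87 at 90 min, and rose by 2.41 and 1.96 (limma adjusted p = 4.39e-07 and 1.88e-06). Its fitted ratios correlated with those of TFS1 over the 18 conditions (Pearson r = 0.743). YLR179C, on the other side of TFS1, had -1.11 and -0.63 at 15 min and -0.57 and -0.46 at 90 min, and fell by 0.87 and 0.52 (limma adjusted p = 0.000199 and 0.00805). Both genes beside APE3 rose at 90 min, HAB1 by 2.33 (limma adjusted p = 0.000183) and YBR287W by 1.82 (limma adjusted p = 7.28e-09), each more than APE3 itself at 0.78. The stress gene DDR48, next to PAI3, rose at 90 min by 1.21 (limma adjusted p = 1.42e-05), when PAI3 had a fitted ratio of 0.04.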
